A study of Homo sapiens with 12 samples.

Results

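The dual-specificity phosphatase (DUSP) genes described here are DUSP1, DUSP4, DUSP5, DUSP6, DUSP7, DUSP8, DUSP10 and DUSP16, which are 8 of the 58676 genes in the deposited table. They were found by gene name, and all 8 were in the table. The group was chosen by the measured bortezomib response of DUSP1, which rose more in both NFE2L1 knockout lines than in the line with NFE2L1 intact. The bortezomib response of a single line and its difference between lines are therefore descriptions for all 8 genes, and no value of DUSP1 was tested. The response averaged over the lines, and the knockout difference in vehicle, were tested for the other 7. The cells were A549, an established human lung carcinoma line. Sequencing covered 3 genotypes, which are a control line, called Control1, and 2 NFE2L1 knockout lines, called KO1 and KO2. Each was exposed for 4 h to DMSO vehicle or to 200 nM bortezomib, a proteasome inhibitor, and each of the 6 groups holds 2 libraries. NFE2L1 encodes a transcription factor that induces proteasome subunit genes when the proteasome is blocked. The labels do not say how the knockouts were made, whether a line is 1 clone, or whether the libraries of a group came from separate cultures, so p-values measure the spread between these libraries, which may be technical.

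MAP kinases (ERK, JNK and p38) are switched on by phosphorylation of a threonine and a tyrosine, and the typical DUSPs, also called MAP kinase phosphatases, remove both phosphates. Many DUSP genes are themselves transcribed in response to MAP kinase activity, so that the pathway induces its own inhibitors. DUSP1, DUSP4 and DUSP5 are inducible nuclear enzymes, DUSP6 and DUSP7 are cytoplasmic enzymes that act mainly on ERK, and DUSP8, DUSP10 and DUSP16 act mainly on JNK and p38. DUSP1 is known as an immediate early gene of stress and growth factor responses.

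The libraries held 13211608 to 23819258 reads assigned to genes, and levels are given as FPKM, which counts fragments per kilobase of gene relative to a library's assigned reads. The mitochondrial share of reads was 12.3% to 19.3% in the 6 libraries whose titles end in R2 and 5.44% to 6.8% in the 6 others, which end in R1 or, in Control1, carry no suffix. Calls among the members were also counted without mitochondrial genes, as given in the last section, but the part of this difference in the results was not tested. Values are given below for the library with no suffix or R1 first and the R2 library second, and folds were taken within those replicate sets. No label pairs the Control1 libraries that lack a suffix with R1 libraries. KO1 and KO2 share the control libraries, so their matched pairs with Control1 are not independent. How many of all genes have knockout and control libraries that do not overlap was not counted. Statements of overlap below are therefore descriptions. NFE2L1 itself had a mean FPKM of 112 ± 55.4 in Control1, 11.6 ± 4.51 in KO1 and 26.1 ± 10.6 in KO2 in vehicle (SD, n = 2 each). All 6 epithelial and A549 markers (KRT8, KRT18, EPCAM, CDH1, AKR1B10 and ALDH1A1) had an FPKM above 1 in every library, and their summed FPKM was 1425 to 3725 in a Control1 library, 1476 to 2401 in KO1 and 3131 to 4979 in KO2. With the replicate block described below, KRT8, KRT18, CDH1 and EPCAM were higher in the knockout lines in vehicle (log2 fold changes 1.36, 1.16, 0.83 and 0.76, limma adjusted p 0.00358 to 0.0285), while AKR1B10 (0.29) and ALDH1A1 (-0.27) were not called. Without the block none of the 6 was (limma adjusted p 0.818 to 1), and ALDH1A1 was at -0.38 and AKR1B10 at -0.02. These are means over 2 knockout lines that differed. With the block 5 of the 6 markers were called lower in KO1 than in KO2 in vehicle, where 3.00% of all genes were called. Without the block 0 of the 6 were. AKR1B10 had a mean FPKM in vehicle of 674 in KO1, 1502 in KO2 and 1064 in Control1. EPCAM rose with bortezomib (0.93, limma adjusted p 0.0353 without the block). Of the 6 markers of blood, endothelial cells and fibroblasts, 5 (PTPRC, CD3E, PECAM1, VWF and COL3A1) stayed under an FPKM of 1 in every library. COL1A1 was the exception and rose with bortezomib (log2 fold change 1.77, limma adjusted p 0.00623). This second list summed to an FPKM of 1.6 to 5.41 in the vehicle libraries and 6.18 to 23.5 in the bortezomib libraries. The part of either list in the results below was not tested.

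DUSP1 (ENSG00000120129, chromosome 5, 172768090 to 172771195, minus strand, GRCh38) was the most abundant of the 8 genes in FPKM when averaged over the 12 libraries. In vehicle its FPKM was 103 and 61.0 in Control1, 26.7 and 12.7 in KO1, and 35.0 and 17.2 in KO2. No KO vehicle library reached the level of either Control1 library. With bortezomib it was 194 and 124 in Control1, 191 and 122.5 in KO1, and 149 and 117 in KO2, where all 3 lines overlapped. The bortezomib fold was 1.88 and 2.03 in Control1, 7.16 and 9.63 in KO1, and 4.26 and 6.8 in KO2. Within replicate sets the knockout lines had 20.9% to 33.9% of the control level in vehicle and 77% to 99% of it in bortezomib. The larger fold in the knockout lines thus went with a lower level in vehicle and not with a higher level under the drug. In bulk RNA, fewer cells that express a gene and less of its RNA per cell cannot be told apart.

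In order of the group means, DUSP1 stood at an FPKM of 19.7 ± 9.9 in KO1 with vehicle, 26.1 ± 12.6 in KO2 with vehicle, 82.1 ± 29.8 in Control1 with vehicle, 133 ± 23 in KO2 with bortezomib, 157 ± 48.7 in KO1 with bortezomib and 159 ± 49.5 in Control1 with bortezomib (SD, n = 2 each). The libraries of the 2 KO groups in vehicle overlapped, as did those of the 3 bortezomib groups. Within replicate sets KO1 was below KO2 in both vehicle pairs, and KO2 was below Control1 in both bortezomib pairs. The control vehicle libraries lay above all KO vehicle libraries and below all bortezomib libraries. On the log2(FPKM + 1) scale the bortezomib change was 0.96 in Control1, 2.98 in KO1 and 2.38 in KO2 (SE 0.55 each in the fit without the block). The knockout difference was -2.04 for KO1 and -1.65 for KO2 in vehicle, and -0.016 and -0.23 in bortezomib. The R2 library was the lower one in 6 of 6 groups. A gene on the opposite strand, RP11-779O18.3, overlaps DUSP1, and whether reads were counted by strand is not given in the sources used here.

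**Figure D1:**
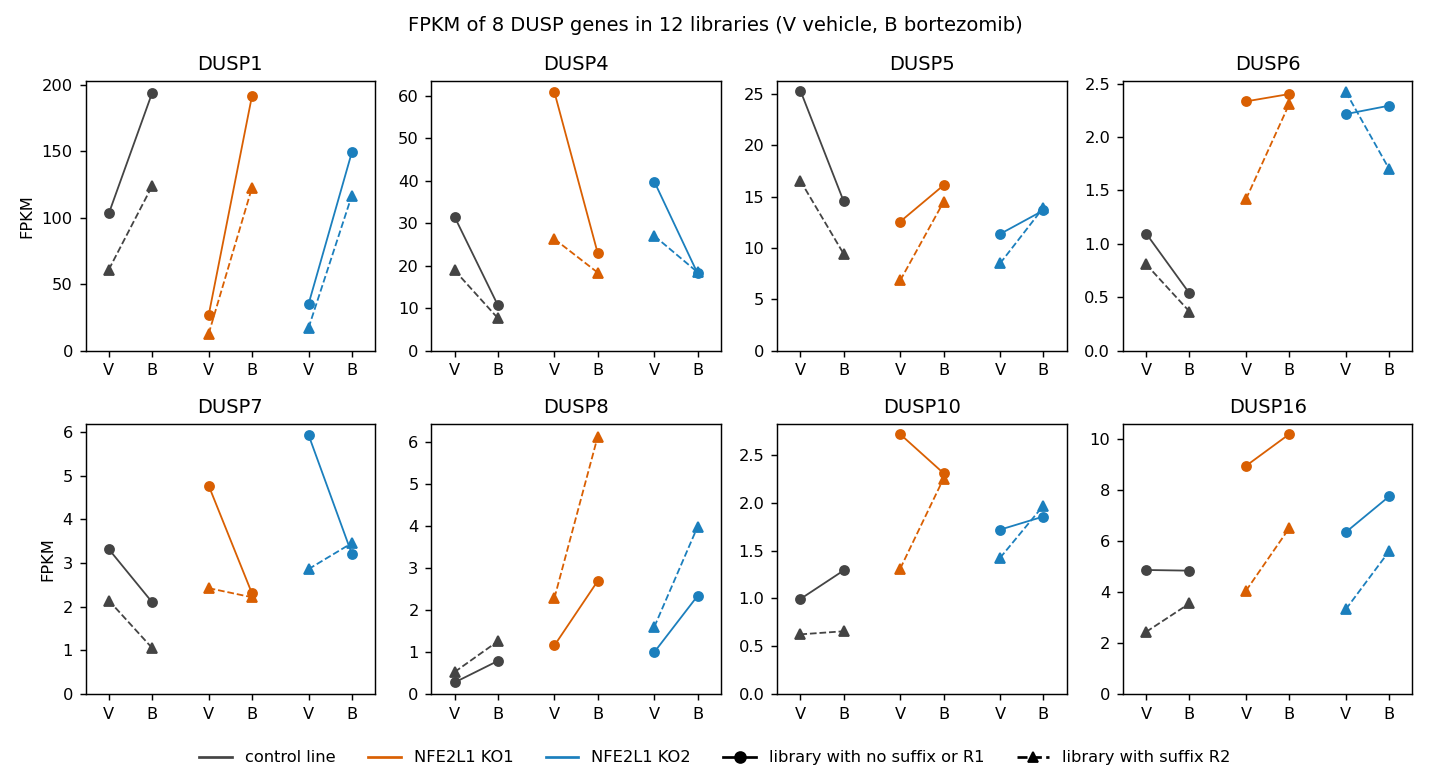
FPKM (vertical axes, linear, from 0) of the 8 genes in each of the 12 libraries, with vehicle (V) joined to bortezomib (B) within a replicate set; colours are lines, circles are libraries with no suffix or R1 and triangles are R2 libraries. DUSP1 starts at 12.7 to 35.0 in the knockout lines and at 61.0 and 103 in Control1, and all 3 lines end between 117 and 194.

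Promoter sequence is shown for DUSP1 and DUSP8, the members whose level was higher with bortezomib in all 6 matched pairs of libraries. DUSP10 and DUSP16 were higher in 5 of 6 pairs, and the response of DUSP1 is the one by which the group was chosen. The windows run from 250 bases before to 50 bases after the RefSeq gene start in GRCh38.p14, 5′ to 3′ on the gene's strand, and the RefSeq table matched 6 of the 8 members (all but DUSP4 and DUSP5). The DUSP1 window is chr5:172771146-172771445 (minus strand) and the DUSP8 window is chr11:1572222-1572521 (minus strand). Capitals mark the full cAMP response element (CRE, TGACGTCA), its core (TGACG) and, in DUSP1, a match to the antioxidant response element core (ARE core, TGACNNNGC) that overlaps such a core.
DUSP1: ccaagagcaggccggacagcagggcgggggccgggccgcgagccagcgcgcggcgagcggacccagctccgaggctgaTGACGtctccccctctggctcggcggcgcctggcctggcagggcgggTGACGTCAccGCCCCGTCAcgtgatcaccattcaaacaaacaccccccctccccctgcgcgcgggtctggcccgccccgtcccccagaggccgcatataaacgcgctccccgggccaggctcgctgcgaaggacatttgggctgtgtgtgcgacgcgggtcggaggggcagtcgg
DUSP8: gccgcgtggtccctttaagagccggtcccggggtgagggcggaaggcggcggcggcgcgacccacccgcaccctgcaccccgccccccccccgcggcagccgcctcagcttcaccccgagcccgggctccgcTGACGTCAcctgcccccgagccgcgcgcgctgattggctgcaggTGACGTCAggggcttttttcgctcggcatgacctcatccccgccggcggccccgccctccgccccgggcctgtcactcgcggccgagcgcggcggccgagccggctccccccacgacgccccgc
DUSP1 held 1 full CRE, at position 126 of its window, and DUSP8 held 2, at positions 133 and 177. None of the windows of DUSP6, DUSP7, DUSP10 and DUSP16 held a full CRE, and over all 35116 RefSeq windows of 300 bases 1.85% did. The CRE is palindromic, so that each full site also holds the core on either strand, and 24.6% of all windows held a core. The ARE core, searched because its consensus is shared by NFE2L1 and NRF2, matched in DUSP1 and in 1 of the 2 DUSP10 windows, and 13.3% of all windows held it. The AP-1 site (TGANTCA) and the paired heat shock element repeats (GAANNTTC and TTCNNGAA) were found in none of the members' windows, against 7.71%, 6.77% and 7.74% of all windows. All motifs were searched on both strands. A match describes the letters only and does not show binding, and a link of the CRE to the bortezomib response was not tested.

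DUSP5 (ENSG00000138166, chromosome 10, 110497838 to 110511544, plus strand), a nuclear ERK-selective phosphatase, also had its lowest levels in the knockout lines with vehicle. Its FPKM in vehicle was 25.3 and 16.5 in Control1, 12.6 and 6.84 in KO1, and 11.4 and 8.5 in KO2, so that all KO libraries lay below both control libraries. In bortezomib it was 14.5 and 9.42 in Control1, 16.1 and 14.5 in KO1, and 13.7 and 13.9 in KO2. Both control pairs were lower with the drug, at 0.574 and 0.57 of the vehicle level. All 4 KO pairs were higher, at 1.28 and 2.12 times the vehicle level in KO1 and 1.2 and 1.64 times in KO2. The log2 fold change of the mean of the knockout lines against Control1 in vehicle was -1.02 (SE 0.33), lower in 4 of 4 matched pairs, and was not called without the block (limma adjusted p 0.591). With the replicate block it was -0.89 (SE 0.20, limma adjusted p 0.0325), a call lost without any 1 of the 4 Control1 libraries, either KO2 vehicle library or the R2 vehicle library of KO1. Averaged over the 3 lines, bortezomib changed DUSP5 by 0.12 (SE 0.22, limma adjusted p 0.794), an average over changes of opposite direction.

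DUSP4 (ENSG00000120875, chromosome 8, 29333064 to 29350668, minus strand), a nuclear phosphatase of ERK and JNK, fell with bortezomib. Its FPKM went from 31.5 and 18.9 to 10.7 and 7.65 in Control1, from 60.8 and 26.3 to 22.9 and 18.4 in KO1, and from 39.8 and 27 to 18.2 and 18.5 in KO2. Within each line both bortezomib libraries were below both vehicle libraries, and the level was lower in 6 of 6 matched pairs, by 1.43-fold to 2.95-fold. The log2 fold change averaged over the lines was -1.03 (SE 0.27, limma adjusted p 0.0362), and with the replicate block its SE was 0.14 (limma adjusted p 0.000319). In the knockout lines DUSP4 was above Control1 in 4 of 4 matched pairs in vehicle (1.26 to 1.93 times) and in bortezomib (1.7 to 2.41 times). In vehicle the KO libraries, at 26.3 to 60.8, overlapped the control libraries, and the difference of 0.55 (SE 0.40) was not called (limma adjusted p 1, and 0.233 with the replicate block).

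DUSP6 (ENSG00000139318, chromosome 12, 89347232 to 89353271, minus strand), the cytoplasmic ERK phosphatase often used as a readout of ERK output, was low in this cell line. In vehicle its FPKM was 1.1 and 0.808 in Control1, 2.33 and 1.42 in KO1, and 2.21 and 2.42 in KO2. In bortezomib it was 0.537 and 0.367 in Control1, 2.4 and 2.31 in KO1, and 2.29 and 1.7 in KO2. KO libraries lay above control libraries in both treatments without overlap, at 1.76 to 3 times the matched control in vehicle and 4.27 to 6.3 times in bortezomib. Control1 had lower values with the drug (0.49 and 0.454 of vehicle), while KO1 had 1.03 and 1.63 times and KO2 1.04 and 0.702 times its vehicle level. The knockout difference in vehicle was 0.66 on the log2(FPKM + 1) scale (SE 0.21, limma adjusted p 0.62, and 0.0754 with the replicate block). The averaged bortezomib change was -0.11 (SE 0.14, limma adjusted p 0.683). DUSP6 averaged an FPKM of 0.702 in Control1 and passed the filter of 1 only through the knockout lines, where it is high. Its separation from Control1 is therefore no support for a difference. The values of DUSP6 rest on 32 to 221 reads per library.

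DUSP7 (ENSG00000164086, chromosome 3, 52048919 to 52056550, minus strand), the close relative of DUSP6, had an FPKM of 3.32 and 2.14 in Control1, 4.77 and 2.42 in KO1, and 5.93 and 2.86 in KO2 with vehicle. With bortezomib it had 2.1 and 1.05 in Control1, 2.31 and 2.21 in KO1, and 3.21 and 3.45 in KO2, so that the knockout lines overlapped Control1 in vehicle and lay above it in bortezomib. The level was lower with the drug in 5 of 6 pairs, the exception being the R2 pair of KO2. The averaged change of -0.42 (SE 0.21) was not called without the block (limma adjusted p 0.251) but was with it (limma adjusted p 0.0261), a call lost without any 1 of the 4 Control1 libraries or the 4 R1 libraries. The knockout lines were above Control1 in 4 of 4 vehicle pairs, by 1.13 to 1.79 times, with overlapping libraries and a log2 difference of 0.38 (SE 0.32) that was not called (limma adjusted p 1, and 0.334 with the replicate block).

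DUSP8 (ENSG00000184545, chromosome 11, 1554044 to 1571920, minus strand), a phosphatase of JNK and p38, rose with bortezomib, by 2.33-fold to 2.88-fold in the 6 matched pairs. Its FPKM went from 0.273 and 0.521 to 0.785 and 1.25 in Control1, from 1.15 and 2.29 to 2.69 and 6.13 in KO1, and from 0.995 and 1.6 to 2.33 and 3.98 in KO2. The fold was 2.88 and 2.4 in Control1, 2.33 and 2.68 in KO1, and 2.35 and 2.49 in KO2. Its averaged log2 fold change was 0.77 (SE 0.22, limma adjusted p 0.0484), with an SE of 0.10 in the fit with the replicate block (limma adjusted p 0.000223). DUSP8 was also higher in the knockout lines than in Control1, at 3.06 to 4.39 times the matched control in vehicle and 2.97 to 4.89 times in bortezomib. In vehicle no KO library overlapped a control library. The knockout difference in vehicle was 0.82 (SE 0.33, limma adjusted p 0.9) without the block and 0.99 (SE 0.18, limma adjusted p 0.0157) with it. DUSP8 averaged an FPKM of 0.708 in Control1 and passed the filter of 1 only through the knockout lines, where it is high, so the call with the block is no support for a difference. Unlike the other members, DUSP8 was higher in the R2 library of every group. The control vehicle values rest on 30 and 45 reads, and the pseudocount of 1 makes the log2 changes of so low a gene smaller than its folds.

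DUSP10 (ENSG00000143507, chromosome 1, 221701424 to 221742176, minus strand), which inactivates p38 and JNK, was 1.73 to 2.74 times higher in the knockout lines in vehicle than in the matched control. Its FPKM in vehicle was 0.994 and 0.624 in Control1, 2.72 and 1.31 in KO1, and 1.72 and 1.43 in KO2, without overlap. In bortezomib it was 1.29 and 0.656 in Control1, 2.31 and 2.25 in KO1, and 1.86 and 1.97 in KO2, again without overlap. Neither the knockout difference in vehicle (0.61, SE 0.25, limma adjusted p 0.943, and 0.0945 with the replicate block) nor the averaged bortezomib change (0.15, SE 0.17, limma adjusted p 0.626, and 0.29 with the block) was called. DUSP10 averaged an FPKM of 0.892 in Control1 and passed the filter of 1 only through the knockout lines, where it is high. Its separation from Control1 is therefore no support for a difference.

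DUSP16 (ENSG00000111266, chromosome 12, 12474210 to 12562383, minus strand), a JNK-selective phosphatase, had an FPKM of 4.87 and 2.44 in Control1, 8.96 and 4.06 in KO1, and 6.36 and 3.33 in KO2 with vehicle. With bortezomib the values were 4.84 and 3.55, 10.2 and 6.52, and 7.76 and 5.61. The level was higher with bortezomib in 5 of 6 pairs, and the averaged change of 0.33 (SE 0.25) was not called without the block (limma adjusted p 0.454) and was with it (limma adjusted p 0.017), a call lost without the R2 library of either Control1 group, of either KO2 group or of KO1 with bortezomib. The knockout lines were 1.3 to 1.84 times the matched control in vehicle and 1.58 to 2.11 times in bortezomib, and the libraries overlapped in vehicle. The vehicle difference of 0.49 (SE 0.38) was not called (limma adjusted p 1, and 0.2 with the replicate block).

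**Figure D2:**
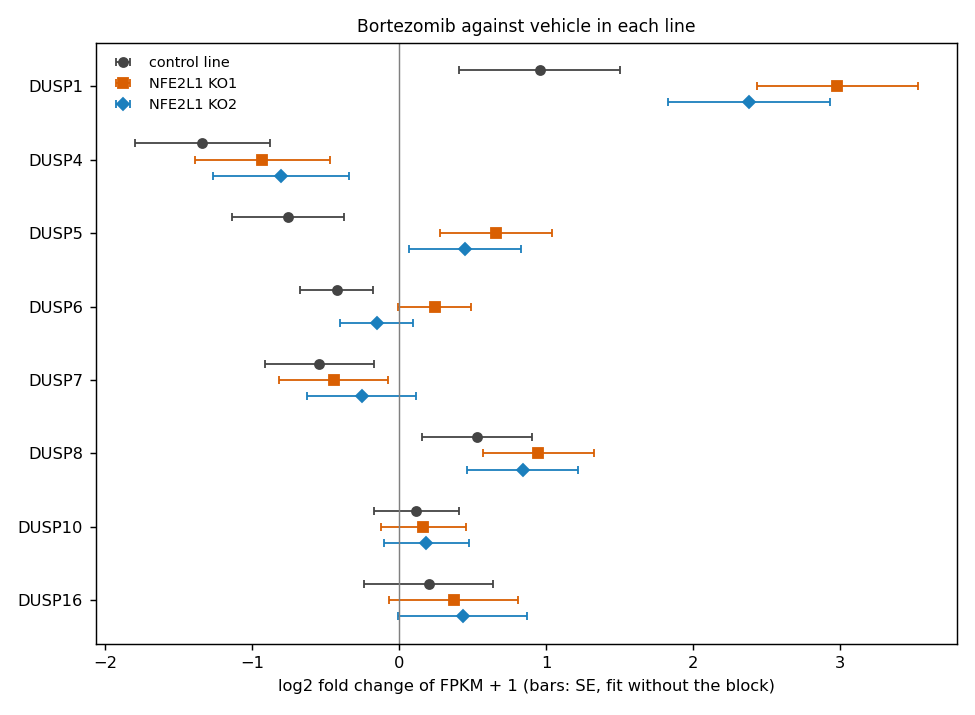
Change with bortezomib against vehicle in each line (horizontal axis, log2 fold change of FPKM + 1; bars are the SE of the fit without the block, 2 libraries per group) for the 8 genes. DUSP1 lies at 0.96, 2.98 and 2.38 in Control1, KO1 and KO2, and DUSP5 at -0.76, 0.66 and 0.45.

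The test that does not use the comparison between lines was the bortezomib change averaged over the 3 lines. It was made for the 7 members other than DUSP1 with limma, a linear model fitted to all genes, on log2(FPKM + 1). A gene was tested where its FPKM averaged 1 or more over the libraries, and it was called at an adjusted p under 0.05. Without the block 2 of 7 members were called (DUSP4 lower and DUSP8 higher), where 11.6% of the 12194 genes tested were called. The replicate block adds a term for the title suffix, and with it 4 of 7 were called (DUSP4 and DUSP7 lower, DUSP8 and DUSP16 higher), where 54.9% of all genes were. The second share is near that of all genes. The median change of the 7 members was 0.12 and that of all genes -0.0075. Without the block, the calls of DUSP4 and DUSP8 rest on the full set of libraries. Leaving out 1 library at a time, DUSP4 kept its call only without the R2 library of Control1 or of KO1 in vehicle, and DUSP8 only without the R2 vehicle or R1 bortezomib library of KO1. The adjusted p then ran up to 0.0948 for DUSP4 and 0.123 for DUSP8, and with the block both were called in all 12 such fits.

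In vehicle the DUSP genes differed between the knockout lines and Control1 in both directions, with DUSP1 and DUSP5 lower and the other 6 higher by their estimates. Of all 12194 genes, 55.8% were higher by their estimates. The median difference of the 7 members tested was 0.55, against 0.036 for all genes. None of the 7 was called by limma without the block, where 0.344% of all genes were, and 4 of them had an unadjusted p under 0.05, as had 561 of the 12194 genes. Limma with voom on recovered reads also called 0 of 7, where 0.336% of all genes were. With the replicate block and no voom 2 of 7 were called, where 6.18% of all genes were. They were DUSP5, lower, and DUSP8, which passed the filter only through the knockout lines, higher. Voom with the block called 4 of 7 (adding DUSP6 and DUSP10, higher), where 10.2% of all genes were. The block ties the KO and control lines mainly through the R2 libraries, since R1 occurs only in the knockout lines. Without the R2 control vehicle library the fit with the block and no voom called 0 of the 7. DUSP6, DUSP8 and DUSP10 had a mean FPKM of 0.702, 0.708 and 0.892 over the 4 control libraries and 2.14, 2.65 and 1.95 over the 8 KO libraries, so they passed the filter of 1 through the knockout lines. The 7 tested genes therefore give no support as a set.

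**Figure D3:**
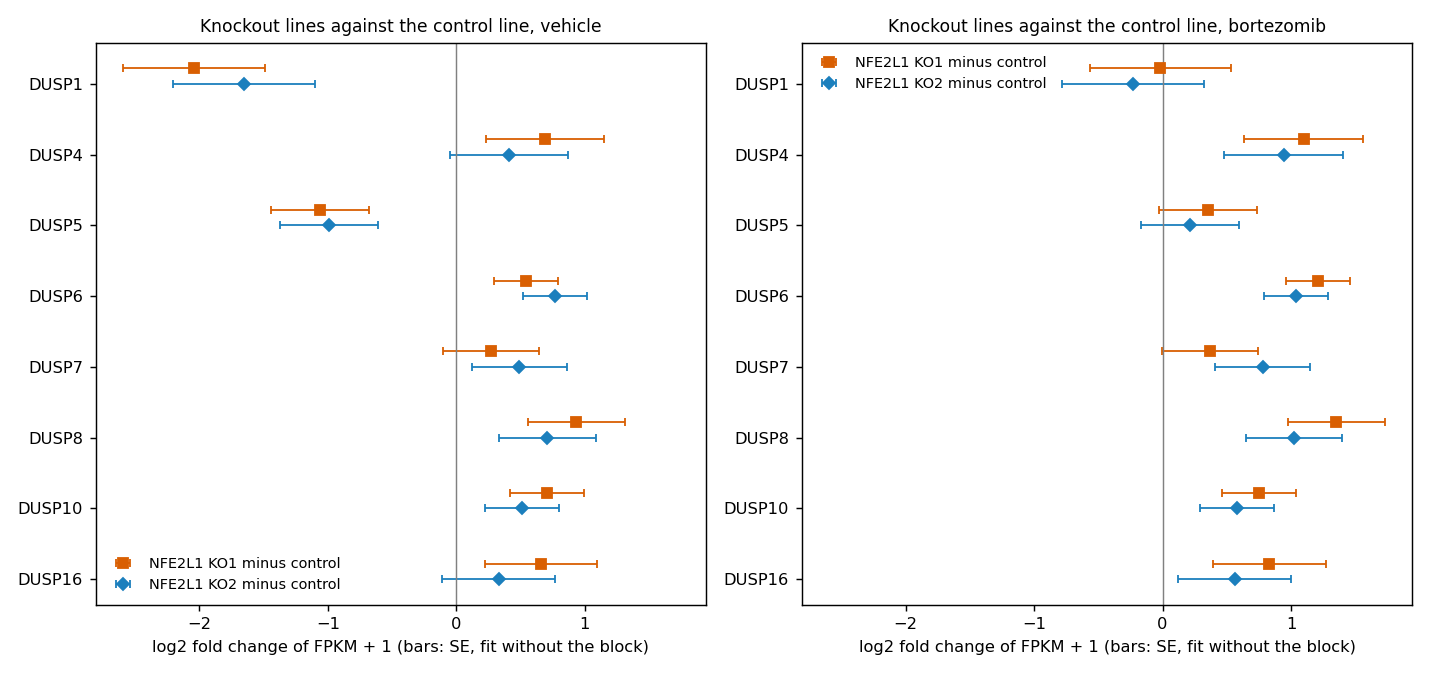
Difference of KO1 and KO2 from Control1 (horizontal axes, log2 fold change of FPKM + 1; bars are the SE of the fit without the block) in vehicle, left, and bortezomib, right. DUSP1 moves from -2.04 and -1.65 in vehicle to -0.016 and -0.23 in bortezomib, while DUSP6 lies at 0.54 and 0.77 in vehicle and at 1.21 and 1.04 in bortezomib.

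KO1 and KO2 were also set against each other in vehicle. The differences of KO1 from KO2 ran from -0.39 for DUSP1 to 0.33 for DUSP16 on the log2 scale. None of the 7 tested members was called by limma without the block, where 0.0656% of all genes were, or with the replicate block, where 3.00% were. Their unadjusted p was under 0.05 in 0 of 7 in either fit, against 286 and 1765 of all genes. Voom called 0 of 7 as well, both without the block, where 0.0164% of all genes were called, and with it, where 6.13% were. The 2 lines share the control libraries, so their like differences from Control1 are not independent.

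As values only, the bortezomib change in the knockout lines minus that in Control1 was 1.73 for DUSP1, 1.31 for DUSP5, 0.47 for DUSP4 and DUSP6, 0.37 for DUSP8, 0.20 for DUSP16, 0.19 for DUSP7 and 0.058 for DUSP10. The group was chosen by this difference in DUSP1, so the signs of these values are no support as a set. DUSP8 lay at -0.15 with voom. Its bortezomib folds overlapped between lines, at 2.4 to 2.88 in Control1, 2.33 to 2.68 in KO1 and 2.35 to 2.49 in KO2. DUSP7, DUSP10 and DUSP16 went below 0 when single libraries were left out. The value of DUSP6 was 1 with a pseudocount of 0.1 and 1.18 with voom. DUSP1 ran from 1.35 to 2.1 and DUSP5 from 1.02 to 1.6 over the 12 fits that leave out 1 library without the block.

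Other genes of the pathway were taken from lists made by pathway role. Their counts are to be read against the 11.6% of all genes called without the block and the 54.9% called with it. The remaining typical phosphatases, DUSP2 and DUSP9, had mean FPKM of 0.352 and 0.897 and were not tested. Of the 6 lists, the outputs of stress kinases had the highest median change. Of 8 tested, 3 rose with bortezomib without the block, which were ATF3, a stress-induced transcription factor (log2 fold change 3.52, limma adjusted p 3.59e-05), and GADD45A and GADD45B, activators of a kinase upstream of p38 and JNK (2.2 and 1.86, limma adjusted p 0.00674 and 0.00447). The list's median was 0.84, and 6 of 8 rose with the replicate block, including JUN (0.78, limma adjusted p 0.00166). The value of JUN is an average over lines whose means moved in opposite directions. Its mean FPKM went from 22.8 ± 12 to 18.5 ± 2.8 in Control1 with bortezomib. It went from 23.1 ± 12.8 to 61.6 ± 10.7 in KO1 and from 20.7 ± 9.7 to 42 ± 6.25 in KO2 (SD, n = 2 each). ERK output genes were mixed. IER2 fell (-1.11, limma adjusted p 0.00537), and 3 of 8 rose and 4 fell with the block, among them MYC (0.76) and CCND1 (-1.02), with limma adjusted p of 0.000242 and 0.000229. EGR1 and FOS, the classic ERK-induced early genes, had mean FPKM of 0.238 and 0.527 over the 12 libraries and fell under the filter.

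The other feedback inhibitors also went both ways. SPRY2, a Sprouty protein that restrains receptor signalling to RAS, fell (log2 fold change -0.99, limma adjusted p 0.0045). ERRFI1, an inhibitor of the EGF receptor, rose (0.79, limma adjusted p 0.0392), and SPRED3 rose (0.51, limma adjusted p 0.0455). That made 2 higher and 1 lower of 10 tested, and 4 higher and 3 lower with the replicate block. Among kinases downstream of MAP kinases, MKNK2, which phosphorylates the translation factor eIF4E, was the only 1 of 9 called without the block (1.32, limma adjusted p 0.0045), and 4 rose and 1 fell with it. None of the 27 tested genes of the kinase cascade and none of the 7 atypical DUSP genes was called without the block. With the block 9 cascade genes rose and 4 fell, a share of 27 below the 54.9% of all genes, led by MAPK6 (0.85), MAP2K2 (0.70) and MAP2K4 (0.64) and by MAP2K6 (-0.98) and MAP2K3 (-0.61), with limma adjusted p of 0.0128 or lower. Among atypical DUSP genes DUSP11 and DUSP12 rose (0.62 and 0.55) and DUSP22 and DUSP28 fell (-0.33 and -0.29), with limma adjusted p of 0.0349 or lower in the fit with the block. These 4 of 7 are near the share of all genes, and the count was 2 to 4 when single libraries were left out.

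**Figure D4:**
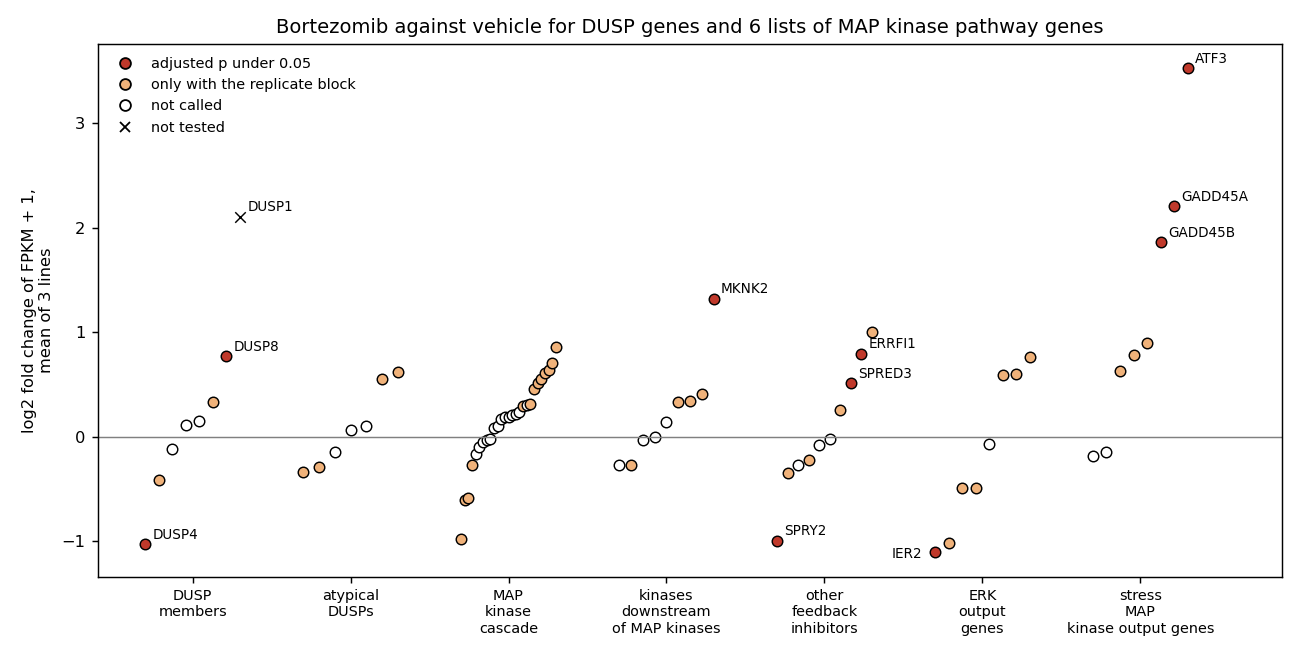
Change with bortezomib averaged over the 3 lines (vertical axis, log2 fold change of FPKM + 1) for each DUSP member and each tested gene of 6 pathway lists, 1 point per gene. Filled red points were called without the block, orange points only with the replicate block, open points in neither, and the cross is DUSP1, not tested; ATF3 (3.52) and GADD45A (2.2) lie highest and DUSP4 (-1.03) is among the lowest.

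In vehicle none of the genes of these lists was called for the knockout lines against Control1 without the block. With the replicate block, which called 6.18% of all genes, SPRY4 and SPRY2 were higher (0.80 and 0.77, limma adjusted p 0.0188 and 0.0459), 2 of 10 feedback inhibitors, as was CCND1 (1.02, limma adjusted p 0.0413), 1 of 8 ERK output genes. GADD45B was lower (-0.97, limma adjusted p 0.0172) and ZFP36, which promotes decay of inflammatory mRNAs, was higher (0.82, limma adjusted p 0.0386), 1 in each direction of 8 stress output genes. No gene of the kinase cascade, of the downstream kinases or of the atypical DUSP list was called in that fit. Leaving out single libraries with the block gave 0 to 2 calls among feedback inhibitors, 0 to 3 among ERK output genes and 0 to 2 among stress output genes.

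The genes with the pattern most like DUSP1 were found by Pearson's r over the 12 libraries, after the mean of each replicate set had been subtracted. They were CCT4, a chaperonin subunit (r = 0.962), NKD2, an antagonist of Wnt signalling (0.959), MAFK, a small MAF protein (0.955), NOP58, a core snoRNP protein (0.954), and WDR43, a ribosome biogenesis factor (0.951). The points share their libraries and treatments, so that the values are descriptions. MAFK had an FPKM of 39.6 and 31.9 in Control1, 15.5 and 23.2 in KO1, and 18.7 and 25.1 in KO2 with vehicle. With bortezomib it had 46.1 and 70.6, 41.7 and 64.6, and 39.5 and 52.6, so that the knockout lines lay below Control1 in vehicle and all lines overlapped with the drug. The members themselves ranged widely on this measure, from 0.595 for DUSP5 to -0.788 for DUSP4.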

How the data were processed

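RNA of the 12 A549 libraries was column-purified and reverse-transcribed from random hexamers, per the labels' protocols. The deposited values are FPKM that the authors computed, scaled to reads assigned to genes. The submitters' processing notes name CASAVA, STAR 2.5, HTSeq 0.6.1, DESeq2 and hg19, with no role given. The deposited gene positions nevertheless match GENCODE 29 (GRCh38) for 95.2% of genes and all 8 members, and are printed as GRCh38. FPKM times length gave whole reads (tolerance 0.1 read) for 100% of values. The depth, 13211608 to 23819258 reads, sets the precision of low genes, and PCR duplicates could not be told apart.

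Groups came from the labels. Limma 3.58.1 (R 4.3.3; trend, no block) was fitted to log2(FPKM + 1) of the 12194 genes whose FPKM averaged 1 or more, in all 12 libraries, with 1 mean per group and Benjamini-Hochberg adjustment over all genes. Fold changes on this scale understate those of low genes. The replicate block uses the title suffix, with the unnumbered control libraries at a level of their own. The R2 minus partner differences correlated between groups at r = 0.696 to 0.89 over 15 pairs of groups, so the suffix was taken to pair libraries. The smallest two-sided p of an exact permutation test of 2 against 2 is 0.333, and none was run. Python 3.11.15, numpy 2.4.6 and pandas 2.3.3 read the table, and the model was tested on simulated data. Promoters are RefSeq's (GRCh38.p14).

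The members, lists and alternatives were chosen with earlier results of these data known. Named genes are the members, NFE2L1, up to 3 rises and 2 falls per list among called genes, and the 5 genes most like DUSP1. JUN, MYC, CCND1 for bortezomib, EPCAM for knockout, and the untested EGR1, FOS, DUSP2 and DUSP9 fall outside this rule and were named after their values were seen. The fits that leave out 1 library with the block were added after seeing the data.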

Additional observations from a re-analysis of the deposited data

Results flagged for a closer look

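DUSP5 was picked out because every bortezomib pair of Control1 went one way and every pair of a knockout line the other. On the log2(FPKM + 1) scale the response of KO1 minus that of Control1 was 1.41, and for KO2 it was 1.2. DUSP6 was picked out in the same way for KO1, with a difference of 0.67. The first KO1 pair of DUSP6 hardly moved, at 1.03 times the vehicle level on 150 reads in vehicle and 147 in bortezomib. DUSP6 also passed the filter of 1 only through the knockout lines, where it is high. In KO2 the DUSP6 pairs went in opposite directions. These differences were not tested, since the group of genes was chosen by this comparison.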

How the results depend on the processing

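Of the 7 tested members, those called for the averaged bortezomib change numbered 2 without the block. The count was 4 with the replicate block, with the control libraries that lack a suffix set to R1, and when the block was joined to a pseudocount of 0.1, quantile normalization or voom. It was 1 after rescaling to a common sum (DUSP8), 1 without mitochondrial genes (DUSP4), and 0 with no filter on low values. Of all genes, 11.6% were called without the block, 54.9% with it and 58.1% with voom and the block. Shares for the other settings are not given here, so the counts describe the settings and are no result about the members. Leaving out single libraries gave 0 to 2 without the block and 2 to 4 with it. For the knockout lines in vehicle the count went from 0 to 2 with the replicate block, also when joined to a pseudocount of 0.1 or quantile normalization. It was 3 with the control libraries that lack a suffix set to R1 (adding DUSP6) and 4 with voom and the block (adding DUSP6 and DUSP10). Of all genes, 0.344% were called without the block, 6.18% with it and 10.2% with voom and the block. DUSP6, DUSP8 and DUSP10 passed the filter of 1 only through the knockout lines, where they are high. Their knockout calls under any setting are therefore no support for a difference. Leaving out single libraries gave 0 without the block and 0 to 3 with it. DUSP8 kept its knockout call with the block in 11 of 12 such fits and DUSP5 in 5 of 12; the bortezomib calls of DUSP16 and DUSP7 held in 7 and 4 of 12. Of 24 member values, 5 changed sign under a setting, of which DUSP7, DUSP10 and DUSP16, in their difference in response between lines, did so only with 1 library left out (lowest -0.10, -0.18 and -0.18). DUSP5's averaged bortezomib change ran from -0.0152 to 0.25 when single libraries were left out, and DUSP8's difference in response between lines was -0.15 with voom and -0.0539 with voom and the block. Why the settings differ was not tested. Low depth limits DUSP8, DUSP10 and DUSP6, whose smallest library values rest on 30, 34 and 32 reads.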
